A study of Homo sapiens with 6 samples.

Results

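The 500 highest stitched H3K27ac domains of the Kasumi-1 NC peak list are described here, out of 7327 such domains in that list. H3K27ac (histone H3 acetylated on lysine 27) is carried by active promoters and enhancers. Kasumi-1 NC peaks on chromosomes 1 to 22 and X that overlapped no promoter window were joined where at most 12.5 kb lay between them, and the domains with the greatest summed peak length were kept. A promoter window reached 2500 bases to each side of the canonical start of a protein-coding gene. The members were thus selected on the peak widths of the Kasumi-1 NC list itself, and their size in that list describes the selection and is not a result. Of 23695 Kasumi-1 NC peaks, 22724 lay on these chromosomes and 13646 of them were distal to every promoter window. The 500 domains held 2729 of the distal peaks and 5.75 Mb of sequence under peaks, which was 33.0% of all distal bases under peaks, although they were 6.82% of the domains.

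Enhancers are stretches of DNA outside promoters that transcription factors bind and from which they raise the transcription of genes on the same chromosome. Nucleosomes around an active enhancer carry H3K27ac, written by the acetyltransferases CREBBP and EP300. Dense runs of such enhancers, often called super-enhancers when they are stitched and ranked by signal, tend to lie at genes that define a cell's identity, and in leukemia cells they are found at lineage transcription factors and at genes of growth signalling. The lists give no signal height, so the domains here were ranked by width and the term super-enhancer is not applied to them.

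A pair of human acute myeloid leukemia lines was profiled by CUT&Tag, a method that tethers a transposase to the marked chromatin through an antibody. Kasumi-1 cells carry the fusion RUNX1::RUNX1T1, while MV4-11 cells carry a KMT2A fusion and an internal tandem duplication of FLT3. Each line was measured with a control (labelled untreated in the records and described as a control short hairpin RNA, NC, in the study's methods) and with a short hairpin RNA against the histone chaperone ANP32B (sh-ANP32B). The study asked what knockdown of ANP32B does to histone acetylation, and gave 1 peak list for each of the 4 groups, called after replicates had been merged. There is therefore no replicate behind any value below, no test of a difference, and no known depth. Intervals on shares are 95% Wilson intervals and cover counting error only.

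The labelled line names were checked at genes that differ between these leukemias. HOXA9 went against them, and so did a distant domain whose nearest start was POU4F1. In the promoter window of HOXA9, a homeobox gene that KMT2A fusions switch on, the lists labelled Kasumi-1 had 4335 bases under peaks for NC and 4707 for sh-ANP32B, whereas those labelled MV4-11 had 769 and 659. The promoter windows of KIT, POU4F1 and RUNX1T1, which are associated with RUNX1::RUNX1T1 leukemia, held no base under a peak in any of the 4 lists. A domain on chromosome 13 whose nearest start was POU4F1, 218279 bases away, ranked 207 among the domains of MV4-11 NC, where peaks covered 10250 bases of it, against 1572 bases in Kasumi-1 NC. Line names below are those of the labels, so any statement of which line is higher rests on labels that the HOXA9 values contradict. The values of the POU4F1 domain, far from that gene, go against the labels too. Among 40 markers of T cells, B cells, erythroid cells and tissues other than blood, 0 were linked to a member. Over all protein-coding genes 577 of 19962 (2.89%) were linked, so a count of 0 among so few markers says little.

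Windows of 300 bases from the highest domains show the sequence that carried the mark. For each domain the widest Kasumi-1 NC peak was searched for the window with the most letters in matches to short motifs of blood transcription factors, and 4 of the windows are given on the plus strand of hg38 because they come from domains that the results below turn on. Capitals mark a match on either strand to 1 of 8 motifs, where N stands for any base. These were RUNX as TGTGGT, ETS as CGGAAG, PU.1 as GAGGAAGT, AP-1 as TGANTCA and C/EBP as TTGCGCAA or else TTGCANCA. The others were GATA as AGATAAG, the E-box as CACGTG and MYB as CAACTG. The AHRR window, chr5:395367-395666, lies in an intron shared by AHRR and the readthrough gene PDCD6-AHRR. The ZMIZ1 window is chr10:79245130-79245429 and lies in an intron of ZMIZ1. The INPP5A window, chr10:132550960-132551259, lies in the first intron of the gene. The CEBPA window, chr19:33263455-33263754, lies between genes, 38780 bases downstream of the CEBPA start.
AHRR: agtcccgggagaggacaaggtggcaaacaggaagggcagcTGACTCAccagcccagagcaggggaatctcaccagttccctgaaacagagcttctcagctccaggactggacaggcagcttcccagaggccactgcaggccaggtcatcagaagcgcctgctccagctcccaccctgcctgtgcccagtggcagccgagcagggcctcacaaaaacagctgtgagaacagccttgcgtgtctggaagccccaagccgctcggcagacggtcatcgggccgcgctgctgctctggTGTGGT
ZMIZ1: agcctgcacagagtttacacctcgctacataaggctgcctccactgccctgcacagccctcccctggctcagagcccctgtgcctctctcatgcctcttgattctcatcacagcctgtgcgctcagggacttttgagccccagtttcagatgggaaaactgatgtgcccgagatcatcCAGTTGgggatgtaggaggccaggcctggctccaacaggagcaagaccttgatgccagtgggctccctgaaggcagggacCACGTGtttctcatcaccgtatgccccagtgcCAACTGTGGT
CEBPA: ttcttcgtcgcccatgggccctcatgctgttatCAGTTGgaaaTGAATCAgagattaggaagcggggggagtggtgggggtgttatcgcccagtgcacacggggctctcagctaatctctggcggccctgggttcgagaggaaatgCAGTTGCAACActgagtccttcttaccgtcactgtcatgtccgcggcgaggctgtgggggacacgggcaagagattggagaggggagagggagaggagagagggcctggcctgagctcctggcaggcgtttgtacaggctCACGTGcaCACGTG
INPP5A: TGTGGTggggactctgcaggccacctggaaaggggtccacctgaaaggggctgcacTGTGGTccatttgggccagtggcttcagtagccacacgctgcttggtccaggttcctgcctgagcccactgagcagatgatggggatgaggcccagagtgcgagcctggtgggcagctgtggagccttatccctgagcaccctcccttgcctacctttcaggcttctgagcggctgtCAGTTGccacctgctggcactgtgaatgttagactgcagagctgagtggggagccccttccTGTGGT
All 300 bases of these 4 windows lay under a peak in each of the 4 lists. This did not hold for every high domain: the windows chosen in the same way at COL23A1 and SLC38A10 had 0 bases under a peak in both MV4-11 lists, that of GRB2 had 67 and 0, and that of the domain at FAM53B had 300 and 179. The CEBPA window had the most motif letters, 36, with 2 E-box matches, 2 MYB matches, 1 AP-1 match and 1 C/EBP match. The INPP5A window had 3 RUNX matches and 1 MYB match. A match describes the letters of the window only.

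Motif matches in the members' peaks were close to those of other distal peaks. RUNX letters occurred in 23.5% of the 300-base centres of the 2729 members' peaks and in 23.7% of the centres of the 10917 other distal Kasumi-1 NC peaks. MYB letters occurred in 11.1% against 11.8%, AP-1 letters in 9.82% against 9.98%, and E-box letters in 6.52% against 6.17%. ETS letters were at 5.79% in the members and 7.21% in the other distal peaks, C/EBP letters at 4.25% and 5.08%, PU.1 letters at 2.64% and 3.22%, and GATA letters at 2.38% and 2.56%. Promoter peaks of the same list stood further away, with RUNX letters in 10.2% of their centres and ETS letters in 23.0%. The peaks of the 500 highest MV4-11 NC domains, the set most like the members, had RUNX letters in 24.4% of centres, MYB letters in 14.2%, AP-1 letters in 11.1% and ETS letters in 5.27%. The median GC content was 53.2% in the members' peaks (quartiles 50.5% and 56.5%), 52.2% in the other distal peaks, 61.6% in the promoter peaks and 51.6% in the peaks of the MV4-11 NC domains. CG dinucleotides occurred 18.7 times per kb in the median member peak, 18.6 times in other distal peaks and 66.5 times in promoter peaks. The members thus had the base composition of distal peaks.

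The members were long and mostly made of several peaks. Their summed peak length ran from 6664 to 48288 bases, with a median of 9587, and their span from the first to the last peak ran from 6686 to 96358 bases, with a median of 21328. The median domain held 5 peaks, 13 domains were a single peak and 53 held 10 or more. The widest peak of a domain made up a median of 44.4% of its summed length. At the threshold, ranks 497 to 500 had summed lengths of 6683, 6671, 6670 and 6664 bases (at HDAC5, CRLF3, PSMD1 and C3orf22), and ranks 501 to 504 had 6664, 6655, 6655 and 6651 bases (at DNM2, PRKCZ, CPT1A and MFSD12). The DNM2 domain was tied with the last member and was left out by its chromosome's place in the order.

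**Figure D1:**
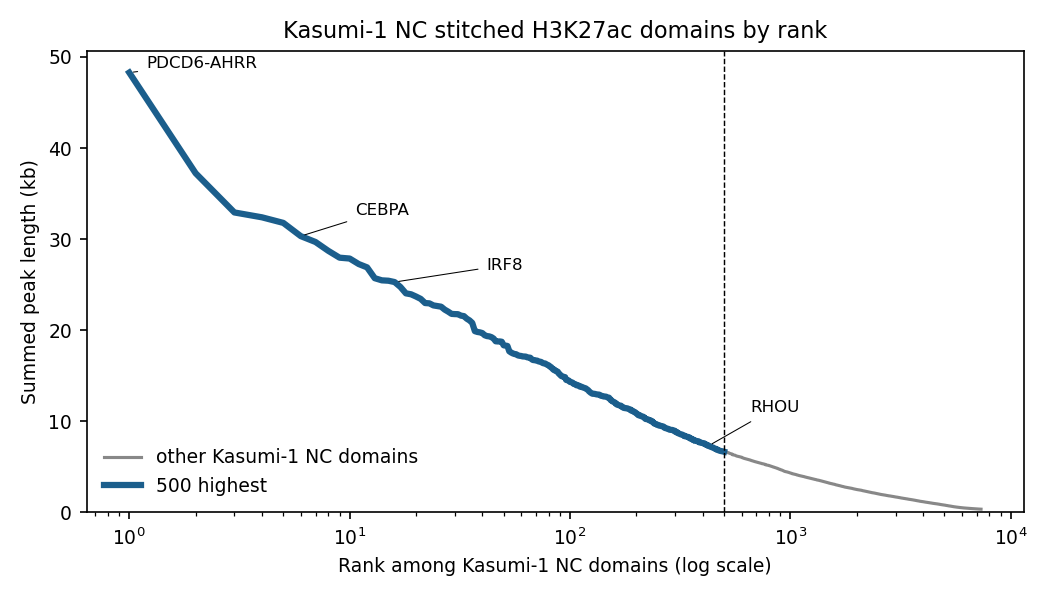
Summed peak length in kb of each of the 7327 Kasumi-1 NC domains (y axis, from 0) against its rank (x axis, log scale), with the 500 highest in blue and the dashed line at rank 500. The curve falls from 48288 bases at the PDCD6-AHRR domain to 6664 bases at rank 500 without a step at the dashed line.

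Most members lay inside genes. Of the 500 domains, 380 (76.0%) overlapped the body of a protein-coding gene, against 59.4% of the 6827 other Kasumi-1 NC domains and 68.4% of ranks 501 to 1000. Introns held 65.4% of the members' peak bases, exons 3.38% and sequence outside genes 31.2%, against 52.2%, 4.35% and 43.5% in the other domains. The median distance to the nearest start was 15941 bases for members and 26000 bases for the others. A start lay inside the span of 57 members, and 58 members had no start within 100000 bases. A start of a long noncoding RNA lay inside 164 members. Longer domains meet more annotation by their length alone, so these shares are descriptions. Of 340 host genes, 31 held more than 1 member. MAD1L1, a mitotic checkpoint gene, held 4. Members made up 10.3% of the domains of chromosome 22 and 9.82% of those of chromosome 15, against 2.24% of those of chromosome X and 2.91% of those of chromosome 13.

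The highest member was the domain of AHRR, which encodes a repressor of the aryl hydrocarbon receptor, at chr5:352733-449090. Peaks outside promoter windows covered 48349 (NC) and 50838 bases (sh-ANP32B) of it in Kasumi-1, and 39834 and 35248 bases of it in MV4-11. It ranked 1, 1, 4 and 5 in these lists, so it was near the top of each. The second was the domain of ZMIZ1, a coactivator of several transcription factors, at chr10:79238951-79300352. It had 37243, 36160, 38637 and 42656 bases in the same order of lists and ranked 2, 2, 2 and 1. It was the only domain of the 10 highest with more bases in either MV4-11 list than in either Kasumi-1 list. The fifth, at TNFRSF1B, which encodes a receptor for tumor necrosis factor, had 33699 and 34458 bases in the Kasumi-1 lists and 25483 and 22677 bases in the MV4-11 lists.

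The sixth domain, at chr19:33247348-33287722, lay downstream of CEBPA, the transcription factor that directs granulocyte differentiation. An enhancer used in myeloid cells is known downstream of that gene. Its 8 Kasumi-1 NC peaks covered 30335 bases, and after the knockdown 29478 bases were covered. In the MV4-11 lists the values were 23525 and 19977 bases. The nearer end of the domain was 14812 bases from the CEBPA start. In the promoter window of CEBPA itself, peaks covered 3148, 3103, 1722 and 0 bases in the same order. The MV4-11 sh-ANP32B list thus kept a peak over the domain and had none at the start.

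The remaining domains of the 10 highest lay at DENND3, a regulator of RAB GTPases; COL23A1, a transmembrane collagen; GRB2, the adaptor that couples receptor tyrosine kinases to RAS; SLC38A10, an amino acid transporter; INPP5A, an inositol phosphate phosphatase; and FAM53B. In Kasumi-1 NC they covered between 27874 and 32941 bases. In MV4-11 NC they covered between 10973 and 23687 bases, with INPP5A the lowest. INPP5A had 27967 bases in the NC list and 27176 in the sh-ANP32B list of Kasumi-1, against 10973 and 6624 in those of MV4-11. Its Kasumi-1 values lay close together, while its MV4-11 values were lower and differed more between the lists. All of the 10 highest domains overlapped 1 of the 500 highest domains of each of the 3 other lists.

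**Figure D2:**
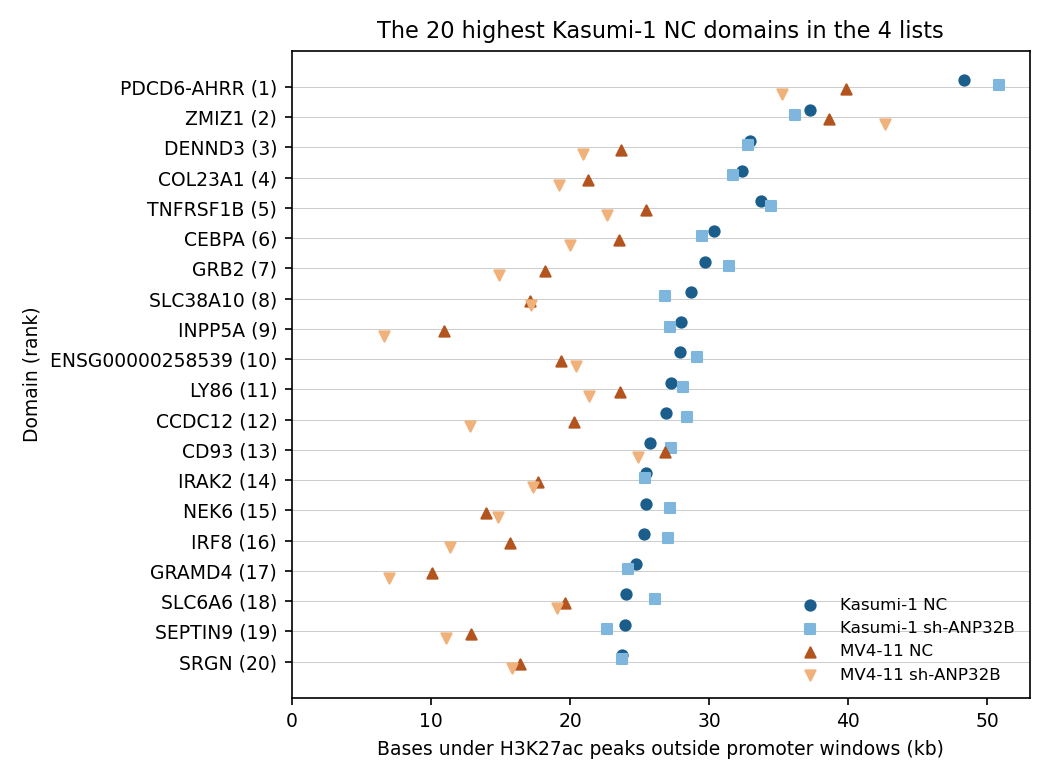
Bases under H3K27ac peaks outside promoter windows, in kb (x axis, from 0), for the 20 highest domains (y axis, gene and rank), with 1 point for each of the 4 lists and no error bar since each group has 1 list. The Kasumi-1 points of a domain lie close together, and the MV4-11 points lie to their left at 18 of the 20 domains, with ZMIZ1 and CD93 the exceptions.

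**Figure D3:**
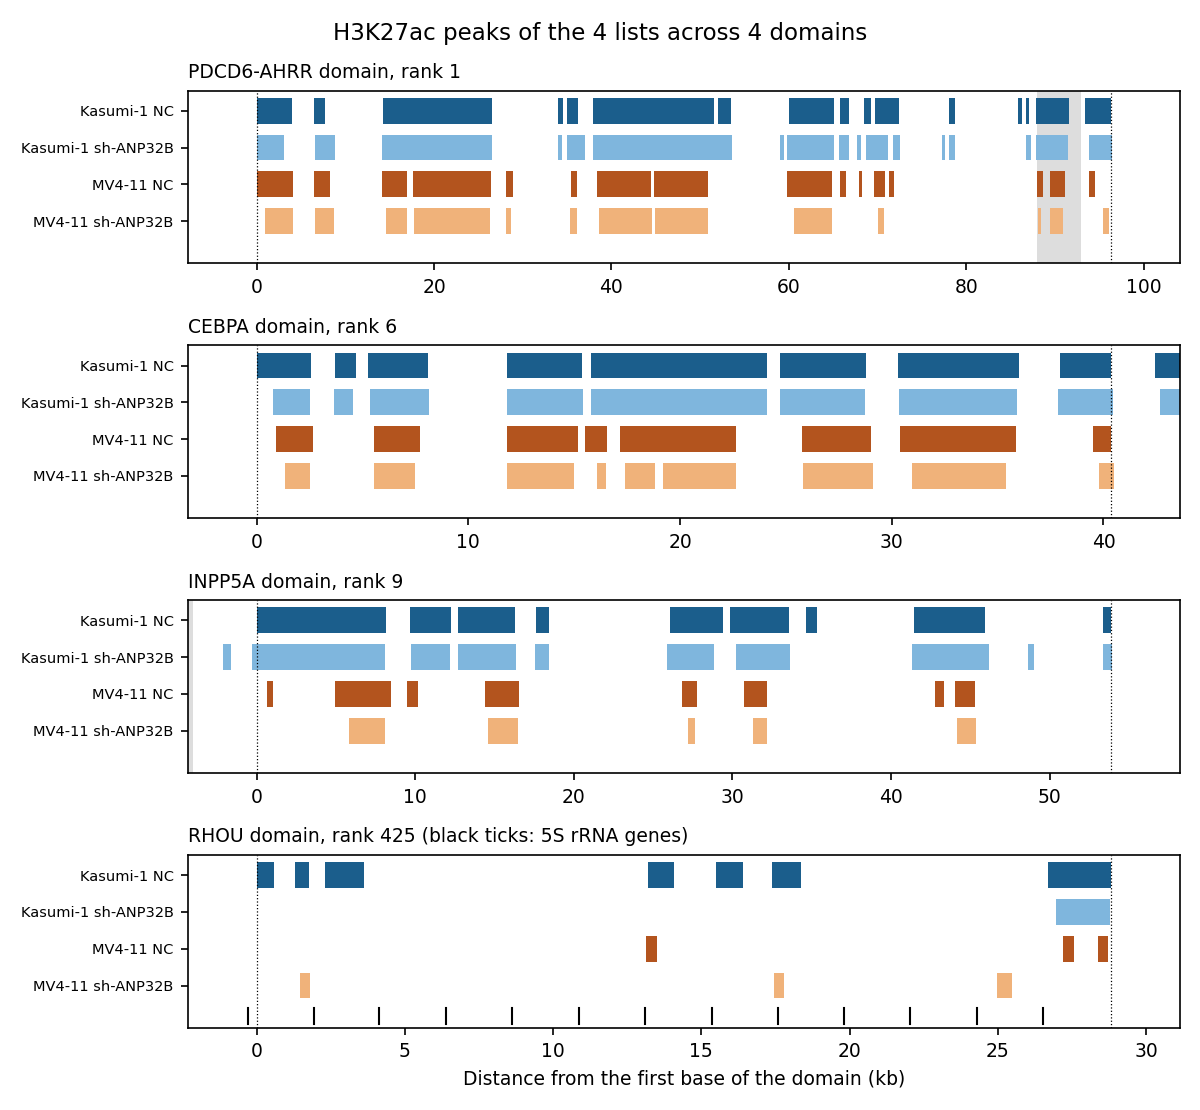
Peaks of the 4 lists (rows of bars) across the PDCD6-AHRR, CEBPA, INPP5A and RHOU domains, by distance in kb from the first base of each domain, with dotted lines at its ends, promoter windows shaded grey and 5S rRNA genes as black ticks. In the PDCD6-AHRR and CEBPA domains most Kasumi-1 NC peak bases lie under a peak in each other list. In the INPP5A domain 36.6% of them lie under an MV4-11 NC peak and 23.2% under an MV4-11 sh-ANP32B peak. In the RHOU domain 7 Kasumi-1 NC peaks face 1 Kasumi-1 sh-ANP32B peak.

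Of the members, 448 (89.6%, 86.6% to 92.0%) overlapped 1 of the 500 highest domains of Kasumi-1 sh-ANP32B, and 443 of the latter (88.6%) overlapped a member. For MV4-11 NC the count was 305 (61.0%, 56.7% to 65.2%), with 300 (60.0%) in the reverse direction, and for MV4-11 sh-ANP32B it was 285 (57.0%, 52.6% to 61.3%), with 279 (55.8%) in reverse. All 3 other lists placed 238 members (47.6%) among their 500 highest. The share was greater at higher ranks. Of the 100 highest members, 100 were among the 500 highest of Kasumi-1 sh-ANP32B, 96 of MV4-11 NC and 94 of MV4-11 sh-ANP32B. Within the 250 highest the counts were 248, 205 and 192. Domains were more often broken up in MV4-11, where 61 members lay in more than 1 MV4-11 NC domain and 64 in more than 1 MV4-11 sh-ANP32B domain, against 16 in Kasumi-1 sh-ANP32B.

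No member was without H3K27ac in MV4-11 NC. The median member had 9729 bases under peaks before and 10025.5 after the knockdown in Kasumi-1, and 7161 and 6525 bases in MV4-11. Of the 500 members, 0 lacked a base in both MV4-11 lists, which allows a share of up to 0.6% (3 counts of the total, in place of a Wilson limit), whereas 21.0% of all Kasumi-1 NC domains did. Of ranks 501 to 1000, 0.4% did. Long domains offer more bases to be met, so the contrast with the background describes size as well as place. The median member had 365 bases under peaks per kb in MV4-11 NC and 17.7 per kb in flanks of the same length, and was denser inside than outside in 497 of 500 cases. For Kasumi-1 NC, on which the members were selected, the densities were 501 and 6.60 per kb.

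The bases marked in Kasumi-1 NC were in part the bases marked in the other line. Of a member's Kasumi-1 NC peak bases, a median of 94.9% (quartiles 90.9% and 97.9%) lay under a Kasumi-1 sh-ANP32B peak, 63.9% (51.0% and 75.4%) under an MV4-11 NC peak and 55.0% (40.3% and 69.4%) under an MV4-11 sh-ANP32B peak. In the other domains these medians were 95.1%, 48.6% and 35.0%. Bases under peaks were fewer in MV4-11 NC than in Kasumi-1 NC at 438 members and more at 62, with a median log2 ratio of -0.47 (0.721-fold). At least 1.5-fold fewer were found at 197 members (39.4%), where the share over all Kasumi-1 NC domains with 500 bases in either list was 55.0%. Since members were picked for long peaks in Kasumi-1 NC, a lower value elsewhere is built into the choice and nothing is read from it. The 500 highest MV4-11 NC domains, followed the opposite way, had a median log2 ratio of -0.15 in Kasumi-1 NC.

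Whether a Kasumi-1 NC peak was met in MV4-11 went with its width, so members and other distal peaks were set side by side at like widths. All distal peaks were split into 5 classes of width with about equal numbers. In the widest class (1772 bases or more), 96.4% of the 1065 members' peaks (95.1% to 97.4%) overlapped an MV4-11 NC peak, against 93.7% of the 1663 others. In MV4-11 sh-ANP32B the shares were 93.1% (91.5% to 94.5%) and 86.5% (84.8% to 88.1%). Members' peaks in this class were wider, with a median of 3373 bases against 2435. In the second class (471 to 666 bases), where median widths were 561 and 552 bases, 45.6% of 355 members' peaks (40.5% to 50.8%) overlapped an MV4-11 NC peak, against 56.8% of 2360 others (54.8% to 58.8%). In the narrowest class the shares were 32.5% and 40.0%. The Wilson intervals of members and others did not overlap in these 2 classes. In MV4-11 sh-ANP32B they did overlap, at 30.3% (25.6% to 35.6%) against 33.9% (32.1% to 35.9%) in the narrowest class and 42.0% (37.0% to 47.2%) against 47.4% (45.4% to 49.4%) in the second. The differences themselves were not tested. In Kasumi-1 sh-ANP32B the narrowest class was met at 70.3% and 70.1%.

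**Figure D4:**
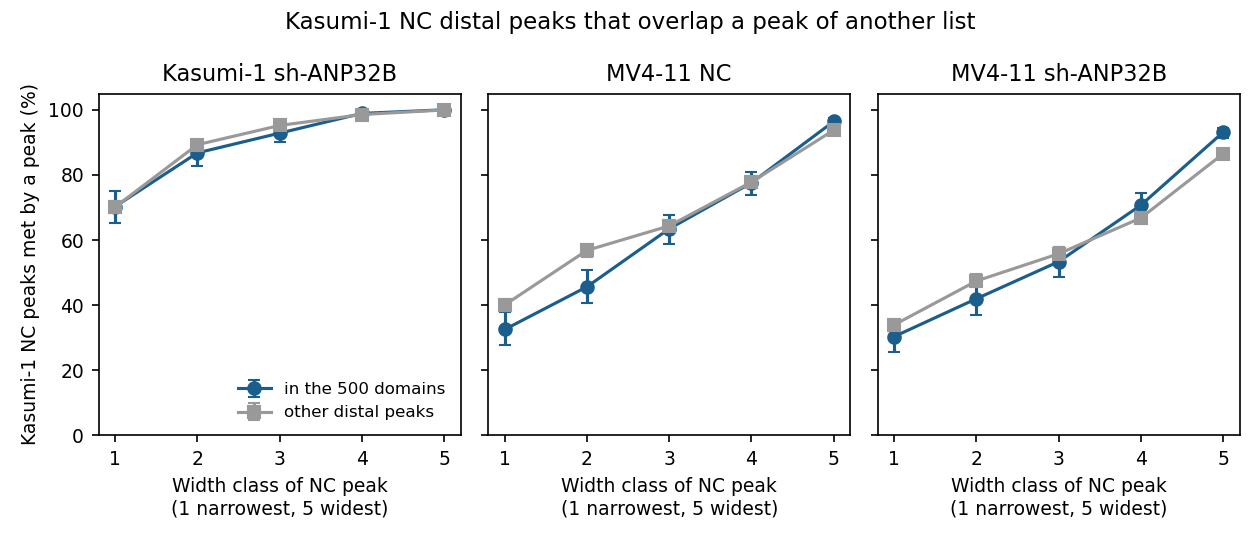
Share of Kasumi-1 NC distal peaks that overlap a peak of Kasumi-1 sh-ANP32B, MV4-11 NC or MV4-11 sh-ANP32B (y axis, percent) in 5 classes of peak width (x axis), for peaks in the 500 domains (blue) and other distal peaks (grey), with 95% Wilson intervals as bars. In MV4-11 NC the members' peaks lie below the others in the 2 narrowest classes, at 32.5% against 40.0% and 45.6% against 56.8%.

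With the knockdown in Kasumi-1 the members changed little in covered length. The median log2 ratio of sh-ANP32B to NC was 0.02 (1.01-fold), with quartiles of -0.04 and 0.10. Bases under peaks were higher in sh-ANP32B at 289 members, lower at 207 and equal at 4, and the summed bases were 1.02-fold. The other Kasumi-1 NC domains stood the other way, with 3300 lower and 1206 higher of 5586, a median of 0.982-fold and summed bases of 0.946-fold. These domains too were defined by Kasumi-1 NC peaks, and 4420 of the 6827 were a single peak. Lower values in sh-ANP32B are thus partly built into them and into the background shares below, and no loss is read from them. Distal bases under peaks in the whole lists were 17413790 in NC and 18855826 in sh-ANP32B. At least 1.5-fold lower was 1 member (0.2%, 0.0353% to 1.12%), where the background over all Kasumi-1 NC domains with 500 bases in either list was 9.74%. At least 1.5-fold higher were 0 members, with a background of 0.772%. Ranks 501 to 1000, nearer to the members in size, had 0.6% lower and 0.2% higher by 1.5-fold. Of these, 252 were lower in sh-ANP32B and 232 higher, with a median of 0.9997-fold. Small changes were thus not particular to the members. The members were selected on Kasumi-1 NC, and the same median taken over the 500 highest Kasumi-1 sh-ANP32B domains was 0.11, with 424 higher in sh-ANP32B. The size of the median thus moved with the list that chose the domains. Higher values in sh-ANP32B are partly built into that second choice, so no direction is read from these medians.

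The members with the most bases added in Kasumi-1 sh-ANP32B were NRROS, MRTFA, CCDC88C, UBASH3B and IRS2. NRROS, which anchors latent TGF-beta on myeloid cells, went from 12799 to 16977 bases (log2 ratio 0.41), and in MV4-11 from 7311 to 5114. UBASH3B, a phosphatase that damps tyrosine kinase signalling and is raised in RUNX1::RUNX1T1 leukemia, went from 13045 to 16316 bases in Kasumi-1 but from 11824 down to 9366 in MV4-11. MRTFA, a coactivator of serum response factor, went from 10812 to 13662 bases in Kasumi-1. All of these 5 domains were lower in MV4-11 sh-ANP32B than in MV4-11 NC. Over the members as a whole 75.5% were lower there, so nothing is read from this count. The domain named for IRS2, an adaptor of the insulin receptor, lay 373618 bases from that gene's start.

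The members with the most bases removed in Kasumi-1 sh-ANP32B included a pair of domains that lie over arrays of small RNA genes. The domain at chr1:228619584-228648415, whose nearest protein-coding start was RHOU, 87064 bases away, had 7315 bases in 7 peaks in Kasumi-1 NC and 1831 bases in 1 peak in Kasumi-1 sh-ANP32B (log2 ratio -2.00), and 1049 and 1223 bases in the MV4-11 lists. It was the single member lower by 1.5-fold, and it holds 12 copies of the 5S ribosomal RNA gene, 2240 bases apart at the median. Of these copies, 11 have the same 119 bases, and reads from identical copies cannot be assigned to 1 of them. The peaks lay mostly between the copies, and in Kasumi-1 peaks touched 1 of the 12 before the knockdown and 0 after it. Words of 50 bases that occur more than once in the domain made up 91.7% of its span, against a median of 0 over the members. The domains of ranks 138 and 343, at CCDC200 on chromosome 17, hold 8 and 4 copies of the U2 small nuclear RNA gene and had shares of 86.5% and 80.1%. Here Kasumi-1 NC peaks touched all 8 and all 4 copies, and Kasumi-1 sh-ANP32B peaks 7 and 4. The domain of rank 138 went from 12814 to 10531 bases in Kasumi-1 (log2 ratio -0.28) and had 19954 and 20491 bases in the MV4-11 lists, where it ranked 3 and 4. No other member held 3 or more copies of a small RNA gene. How the authors treated reads that map to several places is not given in the sources used here, and its part in these values was not tested.

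The others of the 5 domains with the most bases removed were at LFNG, a glycosyltransferase that modifies Notch receptors, from 10642 to 8329 bases (log2 ratio -0.35), at the kinase-like gene PXK, from 13798 to 11782 (-0.23), and at the receptor gene NOTCH1, from 14918 to 12928 (-0.21). LFNG and NOTCH1 went from 7027 to 7326 and from 10828 to 11079 bases in MV4-11. PXK went from 11473 to 8016 bases in MV4-11 and was lower in both lines. Each of these 3 differences in Kasumi-1 was under 1.5-fold.

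In MV4-11 the members held fewer bases under peaks in sh-ANP32B than in NC. MV4-11 values did not enter the choice of the members. The median log2 ratio was -0.22 (0.861-fold), with quartiles of -0.45 and -0.0048, over the 498 members with at least 500 bases in either list. Of these, 376 were lower, 121 higher and 1 equal. At least 1.5-fold lower were 90 members (18.1%, 14.9% to 21.7%), which was below the 28.3% found over all 4455 Kasumi-1 NC domains that passed the same minimum. At least 1.5-fold higher were 6 members (1.20%, 0.553% to 2.60%), against 7.32% of all. The summed bases of the members were 0.871-fold in sh-ANP32B, and those of the other domains 0.835-fold. All distal bases under peaks in the MV4-11 lists fell as well, from 19403380 in NC to 16809032 in sh-ANP32B. The fall was thus not particular to the members. By sign, 75.5% of members were lower, against 64.3% of the 3957 other domains. The median of the other domains was 0.884-fold when the 426 with no base in 1 of the lists were kept, and -0.13 on the log2 scale over the 3531 with a base in both. Beside the other Kasumi-1 NC domains, members were thus lower more often and slightly further down by their median. By summed bases they were reduced less than those domains, and a smaller share of them passed 1.5-fold in either direction. None of these differences was tested. Among ranks 501 to 1000 the median log2 ratio was -0.21, with 24.7% lower by 1.5-fold. Chosen instead on MV4-11 sh-ANP32B, the 500 highest domains had a median log2 ratio of -0.01.

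**Figure D5:**
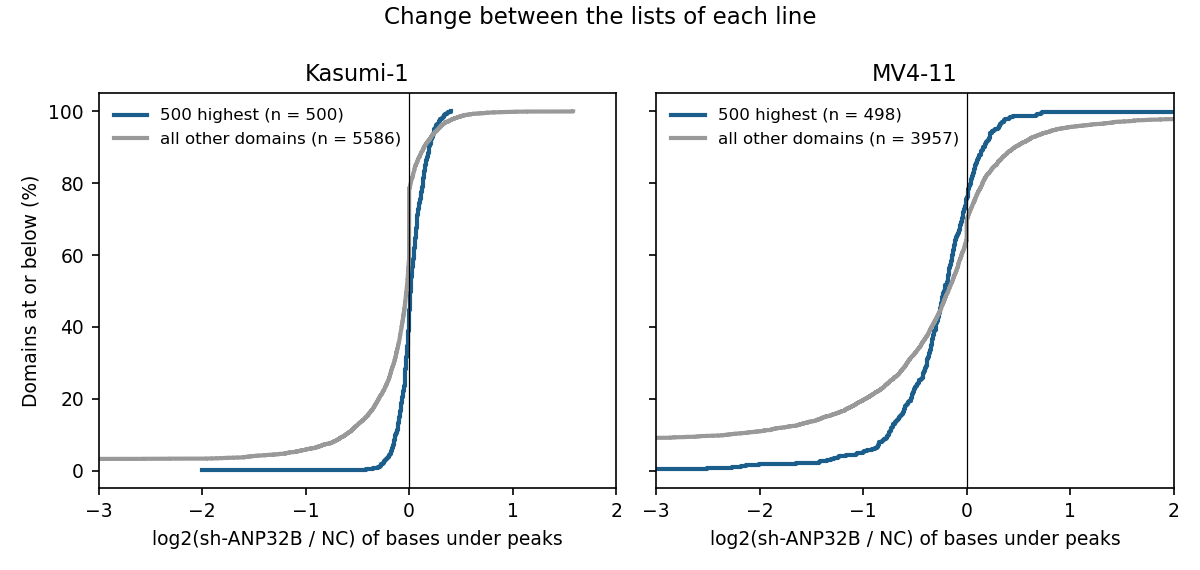
Cumulative share of domains in percent (y axis) at or below a log2 ratio of bases under peaks in sh-ANP32B over NC (x axis), in Kasumi-1 (left) and MV4-11 (right), for the 500 highest domains (blue) and all other domains (grey) with at least 500 bases in either list. Domains with no base in sh-ANP32B lie left of the axis range, and the blue curve crosses 50% at 0.02 in Kasumi-1 and at -0.22 in MV4-11.

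Most of the loss in MV4-11 was within peaks that still met a peak, at their edges or in gaps where a peak was split. Within the members, 77.7% of MV4-11 NC bases lay under sh-ANP32B peaks, 16.1% were lost from peaks that still met an sh-ANP32B peak and 6.13% belonged to peaks that met none. New bases came to 9.38% of the NC bases, of which most belonged to sh-ANP32B peaks that met an NC peak. Peaks that still met an sh-ANP32B peak thus held 72.5% of the lost bases in members, against 59.5% in the other domains. Edges and gaps were not counted apart. Of 2570 MV4-11 NC peaks in members, 2099 (81.7%) met an sh-ANP32B peak, and the 471 that did not had a median width of 485 bases against 1470 bases. In Kasumi-1 the shares were 93.8% of bases kept, 4.52% lost within peaks still met and 1.70% lost with whole peaks. New bases in sh-ANP32B came to 8.42% of the NC bases. An MV4-11 NC peak met more than 1 sh-ANP32B peak in 255 cases, and a Kasumi-1 NC peak did so in 102 cases.

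The members with the most bases removed in MV4-11 sh-ANP32B were CCDC12, NACC2, MRTFA, SH3KBP1 and LRRC27. MRTFA went from 6981 bases to 587 (log2 ratio -3.57), and LRRC27 from 7857 to 1729 (-2.18). SH3KBP1, an adaptor in receptor endocytosis, went from 14117 to 7866 bases (-0.84), and CCDC12 from 20267 to 12780 (-0.67). NACC2, a BTB-domain repressor, went from 22033 to 15219 bases (-0.53), a difference under 1.5-fold. In Kasumi-1 the same domains had 26903 and 28381 bases at CCDC12, 19088 and 20157 at NACC2, 10812 and 13662 at MRTFA, 9433 and 10301 at SH3KBP1 and 10063 and 9875 at LRRC27. Only LRRC27 was lower in Kasumi-1 sh-ANP32B among these 5. Over the members as a whole 41.4% were lower there, so nothing is read from this count.

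The members with the most bases added in MV4-11 sh-ANP32B were PTPRE, RALGDS, RAPGEF1, ZMIZ1 and a domain whose nearest start, UACA, lay 253389 bases away. PTPRE, a receptor-type tyrosine phosphatase, went from 7731 to 12258 bases (log2 ratio 0.67), and the RALGDS domain, at an activator of RAL GTPases, from 6616 to 10866 (0.72). The UACA domain went from 8699 to 14390 bases (0.73) and was also higher in Kasumi-1 sh-ANP32B than in NC, from 11731 to 14082. RAPGEF1, an exchange factor for RAP1, went from 19681 to 24677 bases (0.33) and from 14308 to 16649 in Kasumi-1. ZMIZ1, the second highest member, went from 38637 to 42656 bases (0.14) and from 37243 to 36160 in Kasumi-1. Of these 5, PTPRE, RALGDS and UACA passed 1.5-fold.

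The changes in the lines went their own ways across members. Of the 500, 154 were lower in sh-ANP32B in both lines, 68 higher in both, 220 higher in Kasumi-1 and lower in MV4-11, and 53 the reverse. Spearman's rho between the log2 ratios was 0.00975 over the 499 members with a base in both MV4-11 lists. These points share the same 4 lists, and their GC content was related to the Kasumi-1 ratio, with a rho of -0.31 over the 500 members. The median log2 ratio in Kasumi-1 was 0.05 in the members of lowest GC content (43.5% to 52.5%) and -0.02 in those of highest (55.9% to 66.8%), with 112 of 167 and 70 of 167 higher in sh-ANP32B. In MV4-11 rho with GC content was -0.08 and the medians were -0.17 and -0.24. The part of GC content in the changes was not tested.

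The members lay at 577 of 19962 protein-coding genes (2.89%), counting genes overlapped by a domain or nearest to it. Of 46 blood transcription factors, 7 were linked: RUNX1, RUNX3, LMO2, CEBPA, CEBPB, IKZF1 and IRF8. The 500 highest MV4-11 NC domains were linked to 13 of the 46, which included SPI1, FLI1, ETV6 and MYB. Of 26 hematopoietic receptors and surface antigens, 3 were linked to members (CD34, ITGB2 and SPN), of 16 granule and secretory genes 1 (SRGN), of 10 genes tied to RUNX1::RUNX1T1 leukemia 1 (UBASH3B), and of 24 coactivator and chromatin genes 2 (HDAC7 and DNMT3A). Of the 11 genes that the study followed, ANP32B and MYC among them, 0 were linked. The nearest member to ANP32B was 4852908 bases away. Long genes meet more domains, and the lists were not compared by a test.

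Among the listed transcription factors, IRF8, which directs monocyte and dendritic cell development, had the widest domain after CEBPA. At chr16:85902197-85946655 it had 25291 and 27017 bases in the Kasumi-1 lists, NC first, and 15711 and 11356 in the MV4-11 lists. A second IRF8 domain (rank 206) had 10657, 10216, 6222 and 4077 bases. Both were lower in MV4-11 sh-ANP32B than in NC, and the second by over 1.5-fold (log2 ratio -0.61). RUNX1, a core factor of blood stem cells and a partner in the Kasumi-1 fusion, held 2 members inside its gene. In Kasumi-1 the member of rank 230 went from 10138 to 11731 bases with the knockdown and that of rank 440 from 7157 to 5372, so they moved in opposite directions. In MV4-11 NC they had 13610 and 10713 bases, more than in Kasumi-1 NC.

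The domain nearest to RUNX3, a relative of RUNX1, had 13644, 14332, 9214 and 6183 bases in the 4 lists in the same order, and the higher of 2 nearest to CEBPB, a factor of monocytes and granulocytes, had 17127, 17041, 15143 and 13995. LMO2, a bridging factor of blood stem cells, had 7822, 8287, 6128 and 5374 bases. IKZF1, which encodes the lymphoid and myeloid factor Ikaros, had 7565, 9045, 6971 and 6028 bases. Each of these domains was lower in MV4-11 sh-ANP32B than in MV4-11 NC, by less than 1.5-fold. The other domain nearest to CEBPB was higher there, from 5524 to 5845 bases, as was that of ITGB2, from 9566 to 10509. At CD34, a surface antigen of stem and progenitor cells, the domain lay 37656 bases from the start. It had 11525 and 11127 bases in Kasumi-1 and went from 11744 to 7244 bases in MV4-11 (log2 ratio -0.70). SRGN, which encodes the proteoglycan of secretory granules, had 23705, 23735, 16387 and 15818 bases and barely moved in either line. In all, 21 members were linked to a listed gene. In MV4-11, 18 of them were lower in sh-ANP32B and 3 higher, and in Kasumi-1 11 were lower and 10 higher. Over all members, 75.5% were lower in MV4-11 and 41.4% in Kasumi-1, and over all domains 65.6% and 57.6%, so nothing is read from these counts.

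A few members were nearly bare in MV4-11 and were picked for it after their values were seen. The KANK4 domain had 8334 and 9783 bases in the Kasumi-1 lists and 353 in the MV4-11 NC list. It was at 0 after the knockdown in MV4-11, the single member without a base in that list. The domain nearest to TRIM7, a ubiquitin ligase, had 6835, 6875, 431 and 314 bases. CD300E, a receptor of myeloid cells, had 8644, 7317, 672 and 2866 bases. The MV4-11 NC list held 4.24%, 6.31% and 7.77% of the Kasumi-1 NC bases at these domains.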

How the data were processed

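H3K27ac CUT&Tag was measured in Kasumi-1 and MV4-11 cells, with 1 deposited peak list for each of NC and sh-ANP32B in each line (6 samples, of which 2 IgG samples were not used here). In the study's methods the authors removed PCR duplicates, merged replicates and called peaks with MACS2 after alignment with Bowtie2, while the submitters' processing notes name Bowtie2 2.4.4, MACS3 3.0 and hg38. Each deposited list gives the position and width in bases of every peak, without height, p-value or read total, so depth is unknown. No column of fold changes was present. The members and the gene lists were chosen with earlier results of these data known.

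Canonical starts and exons were taken from GENCODE 44 for 19970 protein-coding genes on chromosomes 1 to 22 and X. The share of genes linked to a member was counted over 19962. The measure was the bases of a domain's span under any peak of a list and outside promoter windows. Pairs of lists were compared as a ratio with nothing added, over domains with at least 500 bases in either, and 1.5-fold was the limit for a fall or rise. An overlap was at least 1 base. With 1 list per group no test was possible. Lists were read with Python 3.11.15, and sequence with pysam 0.24.0 from hg38, whose letters carry no repeat marking, so the repeat share was not computed. The scripts were tested on simulated lists.

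Named domains were the 10 highest, the 5 highest found in all other lists' 500 highest, and the 5 largest rises and falls in bases in each line. The part of the rule for domains bare in both MV4-11 lists found 0. A domain took the name of the gene with the greatest overlap or, with none, the nearest start. Some genes and sequences are not reported here.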

Additional observations from a re-analysis of the deposited data

Results flagged for a closer look

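The median log2 ratio of the 500 domains was 0.02 in Kasumi-1 and -0.22 in MV4-11, a difference of -0.23. It is listed because the signs differ, but the Kasumi-1 median was only 1.01-fold. Its interval over domains was 0.0041 to 0.0267 in the main setting and -0.0019 to 0.0081 with peaks stitched over 5000 bases. Domains of 1 pair of lists are not replicates, so these intervals cannot set a direction, and none is read for Kasumi-1. Each line has 1 pair of lists, and the difference was not tested.

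Of the 28 named domains, 18 moved in opposite directions in the lines, and none of these differences was tested. Over all members, 220 were higher in Kasumi-1 sh-ANP32B and lower in MV4-11 sh-ANP32B, and 53 the reverse. Another 154 were lower in both lines and 68 higher in both. Named domains were picked for size or for change, so nothing is read from the count of 18. Some log2 ratios were small, with SLC38A10 at 0.008 and NOTCH1 at 0.03 in MV4-11. In Kasumi-1, TNFRSF1B was at 0.03 and ZMIZ1 at -0.04. The values that follow are the log2 ratio in MV4-11 minus that in Kasumi-1. Higher in Kasumi-1 sh-ANP32B and lower in MV4-11 sh-ANP32B were 11 domains: MRTFA (-3.91), SH3KBP1 (-0.97), NRROS (-0.92), CCDC12 (-0.74), UBASH3B (-0.66), NACC2 (-0.61), CCDC88C (-0.53), IRS2 (-0.49), GRB2 (-0.37), PDCD6-AHRR (-0.25) and TNFRSF1B (-0.20). The reverse held for 7 domains: the 5S rRNA gene domain near RHOU (2.22), RALGDS (0.83), LFNG (0.41), the U2 gene domain at CCDC200 (0.32), NOTCH1 (0.24), ZMIZ1 (0.19) and SLC38A10 (0.11). The RHOU and CCDC200 domains lie over identical gene copies.

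Off chromosomes 1 to 22 and X, 23 Kasumi-1 NC domains had a summed peak length at or above the 6664 bases of rank 500. The longest had 20862 bases, and 21 of them lay on alternate haplotype sequences, which repeat parts of the main chromosomes. They entered none of the comparisons, and no control library was analysed here to set a level beside them.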

How the results depend on the processing

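Of 76 values recomputed under alternatives, 67 stayed within the main value's 95% interval (Wilson for shares, order statistics for medians), 9 moved and 0 reversed. The Kasumi-1 median log2 ratio, 0.0151, moved to 0.000298 with peaks stitched over 5000 bases, to 0.0300 over 20000 bases, to 0.0377 with domains ranked by span and to 0.0268 in the 250 highest. The Kasumi-1 NC bases under Kasumi-1 sh-ANP32B peaks, a median of 94.9%, moved to 95.9%, 94.0% and 93.1% under the first 3 of these. Ranking by span also moved the share among the 500 highest of Kasumi-1 sh-ANP32B from 89.6% to 83.6%, and stitching over 20000 bases moved that of MV4-11 NC from 61.0% to 65.8%. The causes were not tested. The MV4-11 median ran from -0.23 to -0.18 under its 12 alternatives, and the share bare in both MV4-11 lists reached at most 0.6%. Promoter windows of 1000 or 5000 bases, a common minimum width and joining gap of 357 and 358 bases, counting only distal peaks or all peaks, dropping domains that held a promoter window, keeping 1000 domains, and leaving out the 3 domains over small RNA gene arrays (chosen after seeing the data) moved no value. No paired analysis was possible because the labels give no replicate numbers and no result comes from a test. With 1 list per group, no replicate could be left out. Peak widths depend on depth and on the peak caller's settings, which differed in minimum width between the lists, so a difference in depth between the lists cannot be told apart from a difference in H3K27ac.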
